A study of Mus musculus with 19 samples.

Results

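Nup153, a nucleoporin of the nuclear pore, and the pluripotency factor Oct4 were each mapped by DamID in mouse embryonic stem cells (ESC), and the 2 resulting site lists were compared. The Nup153 list held 3516 sites and the Oct4 list 3570, together 7086 of the 76793 regions in the 9 peak lists of the series. A site was called shared when it overlapped a site of the other list by at least 1 bp. That gave 2059 Nup153-only sites, 1457 shared sites counted in the Nup153 list (1454 counted in the Oct4 list) and 2116 Oct4-only sites. Transcripts were sorted in the same way by sites within 2 kb of their transcription start site (TSS), into 1046 with Nup153 sites only, 373 with sites of both lists and 300 with Oct4 sites only, out of 24016.

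Nup153 sits in the nuclear basket, the filamentous structure on the inner face of the pore, and also contacts chromatin. Oct4, encoded by Pou5f1, is a POU-domain transcription factor that binds the octamer motif and maintains pluripotency in ESC. In DamID the protein is fused to the bacterial Dam methylase, which methylates the adenine of GATC wherever the fusion comes close to DNA, and methylated fragments are cut out, amplified and sequenced. Ring1B (Rnf2) is the catalytic core subunit of Polycomb repressive complex 1 (PRC1), and Cbx7 is the chromobox subunit through which the canonical complex reads trimethylated histone H3 in ESC.

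Both DamID fusions were expressed from a heat shock promoter in a lentiviral pMSCV-puro vector in E14 ESC, which were selected in puromycin and kept on irradiated embryonic fibroblast feeders with LIF and serum replacement. Each fusion was profiled in 2 replicates that were deposited as 1 list, so the spread between replicates and the reads behind a site cannot be given, and GFP-Dam libraries were the control. The values set beside the sites came from neural progenitors (NeuP, 2 RNA libraries and 1 Ring1B list, derived through embryoid bodies with Noggin, FGF2 and EGF, line not named), from ESC with 1 of 2 Nup153 hairpins (#2 and #4, 1 RNA library and 1 Ring1B list each), and from control ESC with a scrambled hairpin (1 RNA library and 1 list each for Ring1B, Cbx7 and Oct4 ChIP). The RNA libraries held 24.3 to 32.2 M fragments. The Ring1B libraries differed more in depth, with 33.2 M tags in NeuP, 30.8 and 9.95 M in hairpins #2 and #4, and 4.99 M in control ESC. The ESC markers Pou5f1, Sox2, Nanog, Esrrb, Zfp42, Fbxo15 and Dppa5a summed to 113 and 87.9 FPKM in NeuP, 1763 and 1915 FPKM in the knockdown libraries and 1715 FPKM in control ESC. Sox2, which neural progenitors also express, made up 110 and 84.2 FPKM of the NeuP sums, against 49.9 FPKM in control ESC, and each of the others was under 2 FPKM in NeuP. The 6 neural progenitor markers summed to 3032 and 3925 FPKM in NeuP, 11.1 and 13.3 FPKM in the knockdown and 7.56 FPKM in control ESC. Fabp7 alone made up 2454 and 3143 FPKM of the NeuP sums. Pax6, Nes, Olig2 and Ptprz1 were also higher in both NeuP libraries than in every ESC library. Sox1 hardly differed, with 2.16 and 1.82 FPKM in NeuP, 1.84 and 1.41 FPKM in the knockdown and 0.948 FPKM in control ESC. The 7 feeder fibroblast markers summed to 39.0 and 95.1 FPKM in NeuP, 9.88 and 8.69 FPKM in the knockdown and 5.83 FPKM in control ESC, and Lum was listed at 0 in all 3 ESC libraries. Col3a1 and Postn carried most of the NeuP sums, whereas Col1a1 had 0.375 and 1.53 FPKM in NeuP and 1.82 FPKM in control ESC, and Col1a2 was likewise lower. Of 20 feeder fibroblast genes, 0 had a DamID site of either list within 2 kb of the start, beside 5.91% of all transcripts for Nup153 and 2.80% for Oct4, so a count of 0 is near the background.

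To show what lies at a start of each kind, 7 promoters are printed here, each from 250 bases before to 50 bases after the start, on the gene's own strand and 5′ to 3′, from RefSeq on GRCm38.p6. Their windows, placed at the mm9 start, lie wholly inside a site of the list or lists named. GATC, the target of Dam, and the octamer ATGCAAAT or its reverse complement ATTTGCAT are in capitals, and both strands were searched. Of 32851 RefSeq windows of the same length, 48.0% held a GATC and 1.74% held the octamer. Such a match is a description of the letters and not a binding site. The share of genes with exactly 1 RefSeq window was 58.3% for Nup153-only starts, 52.5% for starts with both and 46.7% for Oct4-only starts, so a comparison of promoter sequence between the classes is void and is not given.

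Trim28, a co-repressor of KRAB zinc finger proteins, and Cbx7 had a Nup153 site only at the start, and their windows lie at chr7:13023902-13024201 (plus strand) and chr15:79932597-79932896 (minus strand). Neither window holds a GATC or an octamer.
Trim28: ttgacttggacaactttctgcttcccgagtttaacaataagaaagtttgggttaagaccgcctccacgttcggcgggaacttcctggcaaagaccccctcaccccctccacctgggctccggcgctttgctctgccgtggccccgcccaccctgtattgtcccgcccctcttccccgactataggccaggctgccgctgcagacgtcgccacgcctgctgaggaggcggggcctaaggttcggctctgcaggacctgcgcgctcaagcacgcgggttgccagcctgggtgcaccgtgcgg
Cbx7: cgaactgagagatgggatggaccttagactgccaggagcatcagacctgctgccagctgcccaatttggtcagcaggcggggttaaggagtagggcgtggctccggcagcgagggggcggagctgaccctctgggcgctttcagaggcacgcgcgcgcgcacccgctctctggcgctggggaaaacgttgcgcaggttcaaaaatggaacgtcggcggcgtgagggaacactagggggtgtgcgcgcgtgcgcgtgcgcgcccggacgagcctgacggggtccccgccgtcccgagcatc

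Zfp42, which encodes the ESC marker Rex1, Tdgf1, the Nodal co-receptor Cripto, and Pcgf2, a ring finger subunit of canonical PRC1, stood in overlapping sites of both lists. Their windows lie at chr8:43306960-43307259 (minus strand), chr9:110946109-110946408 (minus strand) and chr11:97699599-97699898 (minus strand). The Zfp42 window holds 1 GATC and 1 octamer, and the other two windows hold neither.
Zfp42: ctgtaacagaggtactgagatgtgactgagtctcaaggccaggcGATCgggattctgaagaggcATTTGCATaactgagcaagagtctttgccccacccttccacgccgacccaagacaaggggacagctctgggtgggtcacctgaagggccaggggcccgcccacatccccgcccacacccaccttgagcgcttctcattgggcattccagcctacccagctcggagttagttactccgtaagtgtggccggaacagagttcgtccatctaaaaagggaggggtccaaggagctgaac
Tdgf1: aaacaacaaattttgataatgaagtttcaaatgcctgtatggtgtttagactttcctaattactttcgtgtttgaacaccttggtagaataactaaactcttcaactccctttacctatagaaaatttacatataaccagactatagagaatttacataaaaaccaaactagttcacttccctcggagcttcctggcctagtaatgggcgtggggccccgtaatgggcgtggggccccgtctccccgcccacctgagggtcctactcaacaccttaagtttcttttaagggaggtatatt
Pcgf2: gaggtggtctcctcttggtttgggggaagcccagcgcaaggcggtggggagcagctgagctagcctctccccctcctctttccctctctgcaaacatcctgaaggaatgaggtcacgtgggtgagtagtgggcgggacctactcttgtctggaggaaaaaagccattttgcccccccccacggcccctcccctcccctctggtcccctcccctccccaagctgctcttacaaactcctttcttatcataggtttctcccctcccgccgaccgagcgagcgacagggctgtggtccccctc

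Fam25c, and Alcam, which encodes an adhesion molecule of the immunoglobulin superfamily, had an Oct4 site only, and their windows lie at chr14:34355344-34355643 (minus strand) and chr16:52453032-52453331 (minus strand). The Alcam window holds 2 GATC and the Fam25c window none.
Fam25c: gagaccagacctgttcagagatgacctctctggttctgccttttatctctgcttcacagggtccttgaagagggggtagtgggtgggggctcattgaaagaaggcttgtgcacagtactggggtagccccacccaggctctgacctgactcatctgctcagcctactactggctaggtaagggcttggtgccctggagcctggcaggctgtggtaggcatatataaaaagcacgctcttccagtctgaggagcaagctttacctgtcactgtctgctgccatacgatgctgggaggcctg
Alcam: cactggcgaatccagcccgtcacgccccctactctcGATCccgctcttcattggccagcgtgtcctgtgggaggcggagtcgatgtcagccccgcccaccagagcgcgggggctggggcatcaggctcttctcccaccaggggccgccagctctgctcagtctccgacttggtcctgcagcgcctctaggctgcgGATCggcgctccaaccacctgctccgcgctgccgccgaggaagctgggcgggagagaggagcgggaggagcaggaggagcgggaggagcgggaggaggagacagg

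The first question was how far the 2 proteins marked the same places. Of the Nup153 sites 41.4% (Wilson 95% interval 39.8 to 43.1) overlapped an Oct4 site, and of the Oct4 sites 40.7% (39.1 to 42.3) overlapped a Nup153 site. The lists were alike in form, with 66.4% of Nup153 sites and 65.2% of Oct4 sites at the usual width of 2501 bp and a covered length of 10.4 and 10.7 Mb. Shared sites lay close on each other, with a median distance between centres of 188 bp and 76.0% within 500 bp. The unshared sites were far from the other list, at a median of 147045 bp for Nup153-only sites and 137910 bp for Oct4-only sites, and 8.98% and 11.7% had a site of the other list within 10 kb. Few sites sat at the limit of the definition, since 1 shared site of the Nup153 list and 2 of the Oct4 list overlapped by under 250 bp while 5 unshared sites of each list lay within 250 bp of the other. Shared sites were wider, at a mean of 3152 bp against 2823 bp for Nup153-only and 2820 bp for Oct4-only sites. Among usual-width sites alone the shared part was 25.8% of Nup153 sites and 25.9% of Oct4 sites.

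The sites lay on 20 chromosomes. Across the autosomes the shared part of the Nup153 list ran between 32.8% and 53.9%. The X chromosome, with 4.37% of the transcripts, held 42 Nup153 sites and 37 Oct4 sites, which is 1.19% and 1.04% of the lists. Chromosome 8, with 4.76% of the transcripts, held 218 Nup153 and 270 Oct4 sites, 6.20% and 7.56%. It was not alone in this. Chromosome 13, with 3.71% of the transcripts, held 5.66% and 5.88% of the sites, and chromosome 12, with 3.41%, held 4.64% and 5.10%.

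Position relative to genes separated the classes. A start lay within 2 kb of 42.5% of Nup153-only sites (876 sites, interval 40.4 to 44.7), 24.4% of shared sites (355 sites, 22.2 to 26.6) and 11.5% of Oct4-only sites (243 sites, 10.2 to 12.9). The difference between Nup153-only and Oct4-only sites was 31.1 percentage points (Newcombe 95% interval 28.5 to 33.6), and shared sites stood between them, 12.9 points (10.3 to 15.5) above Oct4-only and 18.2 points below Nup153-only sites (difference -18.2, -21.2 to -15.1). These intervals cover counting error only. Sites inside genes but away from a start ran the other way, at 25.7% of Nup153-only, 30.7% of shared and 42.6% of Oct4-only sites. Sites outside genes made up 31.7% of Nup153-only, 44.9% of shared and 45.9% of Oct4-only sites. The median distance to the nearest start was 5.69 kb for Nup153-only, 16.2 kb for shared and 26.6 kb for Oct4-only sites.

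**Figure D1:**
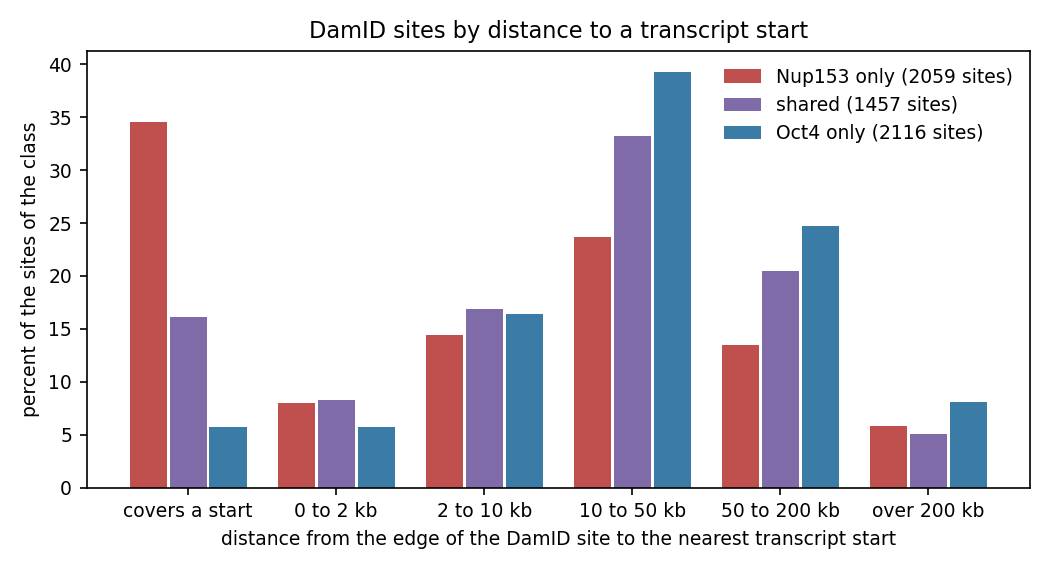
Percent of the sites of each class (vertical axis) by the distance from the edge of the site to the nearest transcript start (horizontal axis, in bins), for Nup153-only, shared and Oct4-only sites. A start was covered by 34.5% of Nup153-only, 16.1% of shared and 5.77% of Oct4-only sites, whereas 23.7%, 33.2% and 39.3% lay 10 to 50 kb away.

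The classes also differed in how they lay on the starts they met. Of the sites within 2 kb of a start, 81.2% of the Nup153-only, 65.9% of the shared and 50.2% of the Oct4-only sites covered the start itself. The median distance between centre and start was 584 bp, 913 bp and 1437 bp in the same order. Sites with starts on both strands, as at divergent promoters, were 14.2% of the Nup153-only, 5.63% of the shared and 6.58% of the Oct4-only sites at a start.

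The next question was how each class met PRC1. In control ESC a Ring1B peak overlapped 26.8% of Nup153-only sites (551 sites, interval 24.9 to 28.7), 58.7% of shared sites (855 sites, 56.1 to 61.2) and 37.9% of Oct4-only sites (803 sites, 35.9 to 40.0). Shared sites were 31.9 points (28.7 to 35.0) above Nup153-only and 20.7 points (17.4 to 24.0) above Oct4-only sites. As a loose reference, 8.10% of all starts had a control Ring1B peak within 2 kb. This counts windows at starts and not overlap with DamID sites, most of which lie away from starts. The same holds for the other shares of all starts set beside shares of sites below. Among members of these classes with the usual width the shares were 21.7%, 53.3% and 34.2%. When only usual-width sites of both lists were intersected anew, they were 27.7%, 48.6% and 35.7%, and shared sites stood 20.9 points above Nup153-only and 12.9 points above Oct4-only sites. When Ring1B had to cover at least 50% of the site, which few peaks do, these differences were 3.95 and 3.08 points.

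The excess at shared sites was found in the deeper hairpin #2 list too, where 30.4% of Nup153-only, 46.5% of shared and 29.3% of Oct4-only sites had a Ring1B peak, and in hairpin #4, with 18.3%, 43.4% and 30.1%. The order of Nup153-only and Oct4-only sites depended on the list. Their difference was -11.2 points (-14.0 to -8.36) in the control list of 4.99 M tags, 1.01 points (-1.77 to 3.78) in the hairpin #2 list of 30.8 M tags and -2.09 points (-5.11 to 0.930) with a peak in any of the ESC lists. The part of depth in this was not tested. In NeuP a Ring1B peak was found at 13.0% of Nup153-only, 12.8% of shared and 6.05% of Oct4-only sites.

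The excess of Ring1B at shared sites held at starts and away from them. At starts the control list met 26.0% of Nup153-only, 46.2% of shared and 33.3% of Oct4-only sites, and the difference of Nup153-only and Oct4-only sites was -7.31 points (-14.1 to -0.926). Away from starts it met 27.3%, 62.7% and 38.5%. At starts the hairpin #2 list met 41.6% of Nup153-only, 48.2% of shared and 31.3% of Oct4-only sites, and away from starts 22.1%, 46.0% and 29.1%. Of all starts, 24.0% had a hairpin #2 Ring1B peak within 2 kb.

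Of the sites with a Ring1B peak in control ESC, those of Nup153 alone were least often in both hairpin lists, with 34.1% (188 of 551), against 52.4% of shared (448 of 855) and 51.4% of Oct4-only sites (413 of 803). A peak in neither hairpin list was recorded at 33.0% of Nup153-only, 21.3% of shared and 23.9% of Oct4-only sites of this kind. In NeuP the order was the other way, since 19.1% of the Nup153-only, 12.9% of the shared and 6.23% of the Oct4-only sites with control Ring1B had a NeuP peak. Each of these lists came from 1 library, and the part of tag depth in these shares was not tested.

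Cbx7 peaks were most frequent at shared sites, and this difference lay away from starts. A Cbx7 peak overlapped 11.0% of Nup153-only (226 sites), 18.5% of shared (269 sites) and 12.9% of Oct4-only sites (274 sites), from a library of 22.5 M tags. Away from starts the shares were 7.35%, 19.4% and 13.2%, with differences of 12.1 points between shared and Nup153-only, 6.23 points between shared and Oct4-only and -5.83 points (-7.93 to -3.65) between Nup153-only and Oct4-only sites. At starts they were 15.9%, 15.5% and 11.1%, all 3 differences had intervals that included 0, and 13.2% of all starts had a Cbx7 peak. The difference of Nup153-only and Oct4-only sites over all positions was -1.97 points (-3.94 to -0.00143), and it turned to 3.41 points when Cbx7 had to cover at least 50% of the DamID site. With that rule the difference of shared and Nup153-only sites, 7.49 points (5.11 to 9.92), turned to -2.97 points, and the one of shared and Oct4-only sites, 5.51 points (3.09 to 8.0), was 0.441 points with an interval that included 0. With usual-width sites intersected anew, the 3 differences were -1.34, 1.83 and 0.490 points, each with an interval that included 0. Ring1B and Cbx7 together were found at 5.39% of Nup153-only, 16.3% of shared and 10.4% of Oct4-only sites, and neither at 67.7%, 39.1% and 59.5%.

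**Figure D2:**
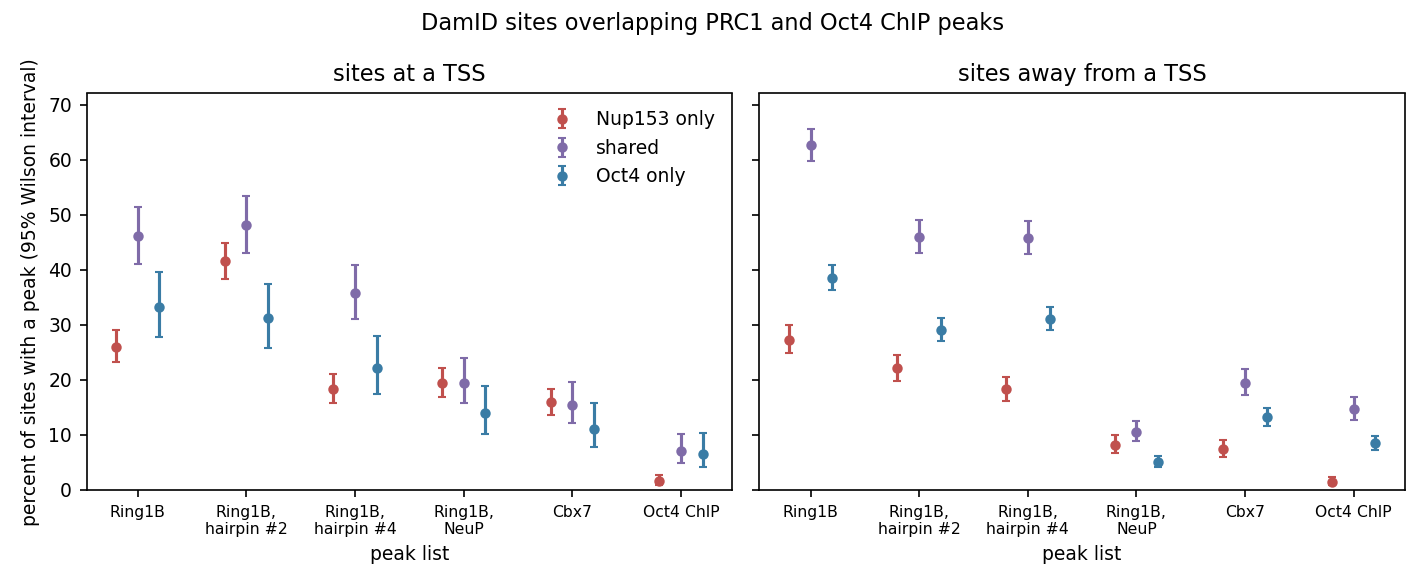
Percent of DamID sites that overlap a peak of each ChIP list (vertical axis, with Wilson 95% intervals), for Nup153-only, shared and Oct4-only sites at a transcript start (left panel) and away from one (right panel). Away from starts the control Ring1B list met 62.7% of shared sites, against 27.3% of Nup153-only and 38.5% of Oct4-only sites.

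Oct4 ChIP is a second assay of the Oct4 protein. Over all positions it ordered the classes as control Ring1B and Cbx7 did, lowest at Nup153-only and highest at shared sites. Of the 1462 peaks of control ESC, a peak fell in 1.55% of Nup153-only sites (32 sites), 12.8% of shared sites (187 sites) and 8.27% of Oct4-only sites (175 sites). Nup153-only sites were 6.72 points lower than Oct4-only sites (difference -6.72, -8.05 to -5.45), and shared sites were 4.56 points (2.52 to 6.69) higher than Oct4-only sites. The second difference was 0.458 points (-3.98 to 4.47) at starts, where 7.04% of shared and 6.58% of Oct4-only sites had a peak, and 6.21 points (3.83 to 8.72) away from them. The Oct4 ChIP list of hairpin #2 ESC met 1.46%, 13.3% and 8.51% of the sites in the same order. Shared sites were counted here in the Nup153 list. At usual width 11.9% of them had a control peak, against 7.24% (6.05 to 8.64) of Oct4-only sites. Counted in the Oct4 list, 13.8% of all shared sites but 8.47% (6.71 to 10.6) of those with usual width had one. At usual width the excess thus depended on the list used. Of all starts, 0.733% had a control Oct4 ChIP peak within 2 kb.

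The DamID sites were then placed on genes. A Nup153 site lay within 2 kb of 5.91% of the transcript starts, an Oct4 site at 2.80%, and sites of both at 1.55%. RNA in control ESC was given as FPKM, fragments scaled by transcript length and sequencing depth. The median level was 7.77 FPKM for Nup153-only starts (quartiles 1.37 and 24.6), 9.84 FPKM for starts with both (2.07 and 34.1) and 3.82 FPKM for Oct4-only starts (0.0885 and 19.4), beside 0.830 FPKM for all transcripts. A level of at least 1 FPKM was found for 77.3% of Nup153-only (interval 74.7 to 79.8), 82.6% of both (78.4 to 86.1) and 62.3% of Oct4-only starts (56.7 to 67.6), beside 48.7% of all. Of Nup153-only starts 6.21% were listed at 0, of starts with both 3.75% and of Oct4-only starts 19.7%.

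The difference of 15.0 points between Nup153-only and Oct4-only starts (9.10 to 21.1) moved with the kind of transcript. Among protein-coding transcripts, a restriction added after the values were seen, 83.0% of 940 Nup153-only, 89.1% of 321 both and 78.5% of 223 Oct4-only starts reached 1 FPKM, and the difference was 4.50 points (-1.0 to 10.8). Of the Oct4-only starts, 30 of 300 belonged to 1 cluster of microRNA genes (Mir297, Mir466, Mir467 and Mir669 families) inside Sfmbt2, a Polycomb-group gene, on chromosome 2 (starts between 10389122 and 10439782, mm9), which held 5 Oct4 sites and 0 shared ones. Sfmbt2 itself was measured at 1.88 and 1.56 FPKM in NeuP and 5.59 FPKM in control ESC. Of the 1071 microRNA genes in the table, 36 had a Nup153 site only (3.36%), 12 both (1.12%) and 38 an Oct4 site only (3.55%). The numbers over all 24016 transcripts were 1046, 373 and 300, and the 38 include the 30 starts of the Sfmbt2 cluster. Nup153-only starts, chosen here after the classes were seen, included Mir182, Mir183 and Mir96 and the trio Mir106b, Mir93 and Mir25, starts with both included Mir124a-1 and Mir22, and Oct4-only starts included Mir9-2 and Mir21a.

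**Figure D3:**
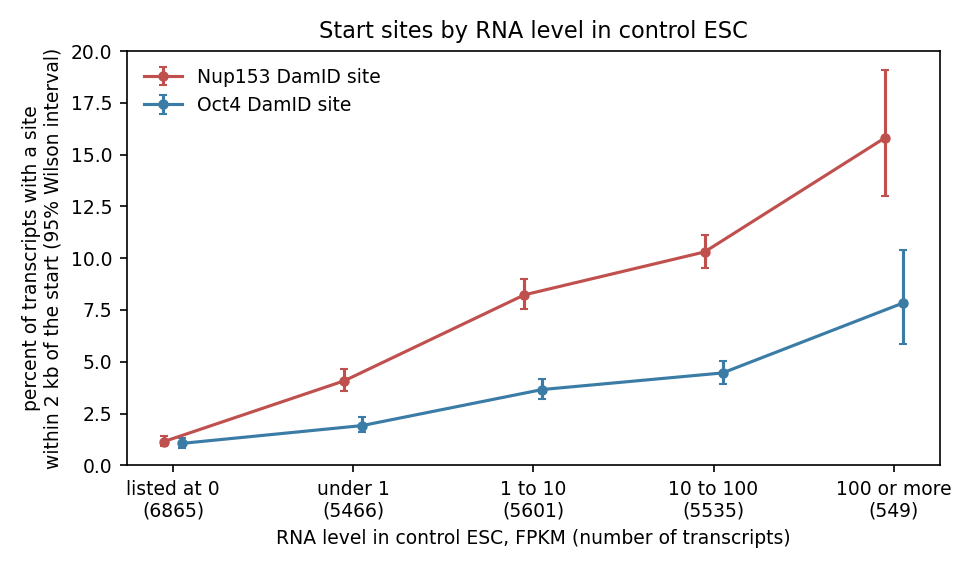
Percent of transcripts with a Nup153 or an Oct4 site within 2 kb of the start (vertical axis, with Wilson 95% intervals) by their RNA level in control ESC (horizontal axis, FPKM bins with the number of transcripts). Among transcripts listed at 0 the shares were 1.15% for Nup153 and 1.06% for Oct4, and among those at 100 FPKM or more 15.8% and 7.83%.

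Starts with both kinds of site most often had a control Ring1B peak. It lay within 2 kb of 26.8% of Nup153-only, 42.4% of both and 28.7% of Oct4-only starts, beside 8.10% of all. Starts with both were 15.6 points (9.95 to 21.3) above Nup153-only and 13.7 points (6.42 to 20.7) above Oct4-only starts. Nup153-only minus Oct4-only was -1.90 points (-7.85 to 3.66). In the deeper hairpin #2 list the shares were 44.9%, 46.9% and 32.0%, beside 24.0% of all. A Cbx7 peak lay at 16.6%, 15.3% and 11.7%, beside 13.2% of all starts. Between the classes, only the Cbx7 difference of Nup153-only and Oct4-only starts, 4.97 points (0.322 to 8.92), had an interval without 0. Oct4 ChIP peaks lay at 1.53%, 5.90% and 4.67% of these starts.

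Genes of pluripotency stood out in both lists by share. Of 30 pluripotency genes, 13 had a Nup153 site at the start and 13 an Oct4 site (43.3% each), beside 5.91% and 2.80% of all transcripts. Fgf4, Pou5f1 and Trim28 had Nup153 sites only. Dppa3, Dppa5a, Fbxo15, Klf5, Mycn, Nr5a2, Sall4, Tbx3, Tdgf1 and Zfp42 had both. Dppa4, Jarid2 and Rif1 had Oct4 sites only at the start, and Jarid2 also held 1 Nup153 site elsewhere in its span. Nanog, Sox2 and Esrrb had no site of either list within 2 kb of the start.

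Pou5f1, the gene of the Oct4 protein, had 1 Nup153 site, which began inside the gene, at 35644417 to 35647819 of chromosome 17 (mm9). Its nearest Oct4 DamID site was 274 kb away, but a control Oct4 ChIP peak lay within 2 kb of its start. The Nup153 gene had no site of either list, the nearest Nup153 site being 1127 kb and the nearest Oct4 site 708 kb away. Zfp42 on chromosome 8, whose promoter is printed above, had its start covered by a Nup153 site from 44390061 to 44393313 and an Oct4 site from 44389216 to 44393197. Dppa5a, which encodes an RNA-binding protein of ESC, had both kinds near its start but apart, a Nup153 site from 78214351 to 78217583 of chromosome 9 that covered the start and an Oct4 site from 78211530 to 78214030.

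NeuP libraries were compared with control ESC in 1 limma fit over 13750 transcripts with at least 1 FPKM in at least 1 library, on log2(FPKM + 1), where the control library is assumed to vary like the others. Of the pluripotency genes 28 of 30 were lower in NeuP (21 without either hairpin library) and 0 higher, beside 24.9% lower and 18.3% higher among all transcripts tested. In these bulk libraries fewer cells of a type and less RNA per cell cannot be told apart. Of the 16 with a site of either list at the start, 15 were lower (Benjamini-Hochberg adjusted p under 0.05), and 11 of the 16 when either hairpin library was left out, where Trim28, Mycn, Nr5a2 and Jarid2 no longer passed.

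Pou5f1 had 1.99 and 1.65 FPKM in NeuP, 476 and 501 FPKM in hairpins #2 and #4 and 543 FPKM in control ESC. All 3 ESC libraries stood far above NeuP, and the log2 change in NeuP was -7.59 ± 0.21 (SE, limma adjusted p = 0.00238). Zfp42 had 0.277 and 0.252 FPKM in NeuP, 104 and 109 FPKM in the hairpins and 76.6 FPKM in control ESC (log2 change in NeuP -5.94 ± 0.18, adjusted p = 0.00238). Both hairpin libraries lay above the control for Zfp42, with a log2 change of 0.47 ± 0.18 that did not pass the test (adjusted p = 0.847). Dppa5a had 0.147 and 0.195 FPKM in NeuP, 356 and 427 FPKM in the hairpins and 432 FPKM in control ESC.

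Fgf4, an autocrine growth factor of ESC, had 0.0310 and 0.0410 FPKM in NeuP and 69.8 FPKM in control ESC. Trim28 kept a higher level, with 58.8 and 95.2 FPKM in NeuP, 230 and 251 FPKM in the hairpins and 226 FPKM in control ESC (log2 change in NeuP -1.58 ± 0.37, adjusted p = 0.0382). Tdgf1 had 0.130 and 0.0210 FPKM in NeuP, 48.0 and 104 FPKM in the hairpins and 54.3 FPKM in control ESC, so the hairpin libraries lay on either side of the control. Among the Oct4-only genes, Dppa4, a chromatin protein of early embryos, was listed at 0 in both NeuP libraries, at 24.3 and 21.9 FPKM in the hairpins and at 18.2 FPKM in control ESC. Rif1, which acts in replication timing, had 7.73 and 14.9 FPKM in NeuP, 48.9 and 49.6 FPKM in the hairpins and 35.2 FPKM in control ESC, and just missed the threshold in NeuP (adjusted p = 0.0503).

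**Figure D4:**
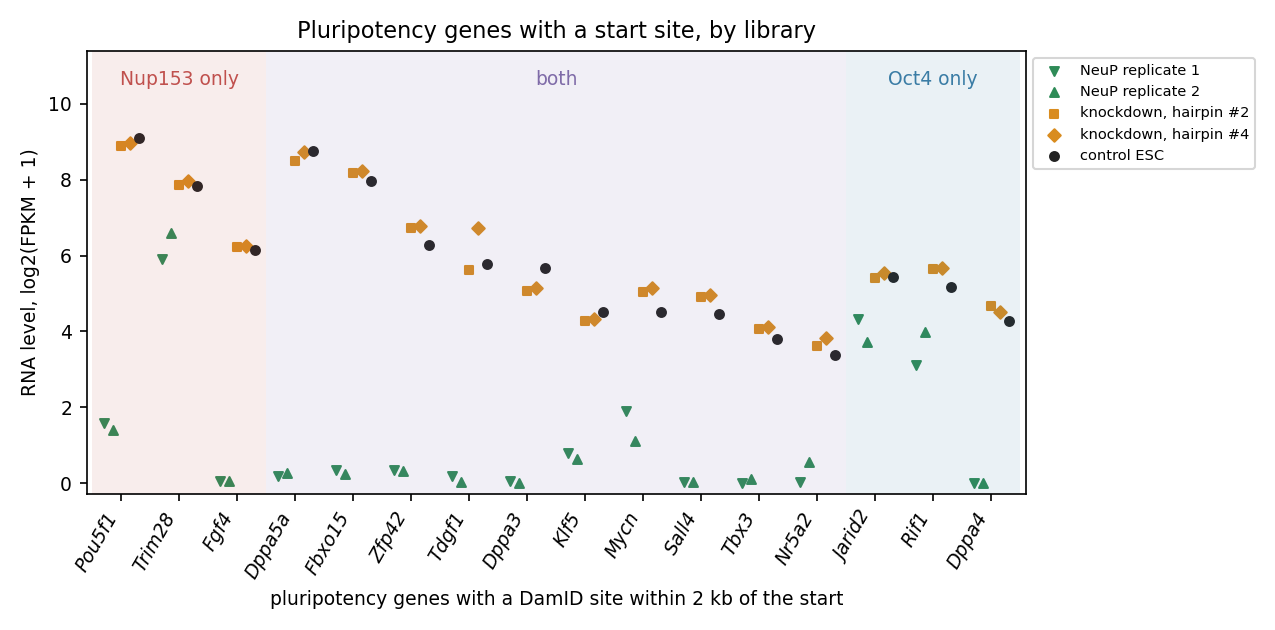
RNA level on the log2(FPKM + 1) scale (vertical axis) of the 16 pluripotency genes with a DamID site at the start (horizontal axis), with 1 point for each of the NeuP, hairpin and control ESC libraries and shading for Nup153-only, both and Oct4-only genes. NeuP points lie below the ESC points for every gene shown, and Pou5f1 has 1.99 and 1.65 FPKM in NeuP against 543 FPKM in control ESC.

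Among the PRC1 subunits 5 of 25 genes (20.0%) had a Nup153 site at the start and 2 (8.0%) an Oct4 site, beside 5.91% and 2.80% of all transcripts. At the start, Cbx7, Pcgf1, a ring finger subunit of a non-canonical complex, and Rybp had Nup153 sites only. Rybp, which joins non-canonical complexes in place of a chromobox protein, also held 2 Oct4 sites elsewhere in its span. Pcgf2 and Phc1, a polyhomeotic subunit, had both kinds at the start. Cbx7 had 2.07 and 1.84 FPKM in NeuP, 45.2 and 49.1 FPKM in the hairpins and 38.1 FPKM in control ESC, and fell by 3.73 ± 0.19 on the log2 scale in NeuP (adjusted p = 0.00251). Phc1 had 23.1 FPKM in each NeuP library, 119 and 105 FPKM in the hairpins and 84.0 FPKM in control ESC (log2 change in NeuP -1.82 ± 0.20, adjusted p = 0.00791). Rybp fell as well, with 1.76 and 3.04 FPKM in NeuP and 8.88 FPKM in control ESC (adjusted p = 0.0234). The NeuP calls of Phc1 and Rybp were lost when either hairpin library was left out (adjusted p = 0.0888 and 0.160 without hairpin #2). Pcgf2 at 19.6 and 10.4 FPKM in NeuP and 24.8 FPKM in control ESC, and Pcgf1 at 5.73 and 6.64 FPKM in NeuP and 8.18 FPKM in control ESC, did not pass the test.

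Of 11 PRC2 genes, which encode the complex that trimethylates histone H3 lysine 27, 1 (9.09%) had a Nup153 and 2 (18.2%) an Oct4 site at the start, Aebp2 with both kinds and Jarid2 with an Oct4 site only. Both proteins are accessory subunits. Jarid2 had 19.0 and 12.2 FPKM in NeuP, 41.4 and 45.2 FPKM in the hairpins and 42.0 FPKM in control ESC (log2 change in NeuP -1.40 ± 0.33, adjusted p = 0.0385). Aebp2 had 23.2 and 33.3 FPKM in NeuP, 41.9 and 42.3 FPKM in the hairpins and 42.2 FPKM in control ESC, which did not pass (adjusted p = 0.183).

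Lists of later development were counted beside the 5.91% of all starts with a Nup153 site and the 2.80% with an Oct4 site. The counts are small, and differences between the lists were not tested. The HOX genes, which pattern the body axis, had Nup153 sites at 6 of 39 starts (15.4%; Hoxc5, Hoxc6, Hoxc11, Hoxc12 and Hoxd12, and with both Hoxa4) and Oct4 sites at 1. Other homeobox genes of development, such as the Lhx, Nkx, Six-type, Irx, Dlx, En and Meis genes, had them at 7 (9.59%; among them En2, Irx6, Meis2, Six3 and Six4) and 1 (Dlx4) of 73, forkhead genes at 5 (10.9%; Foxa1, Foxd3, Foxh1, Foxo4 and Foxp4) and 0 of 46, neuronal genes at 5 (Ncam1, Nefl, Neurod1, Syp and Tubb3) and 0 of 20, and FGF ligands at 3 (13.6%; Fgf4, Fgf5 and Fgf15) and 0 of 22. For axon guidance and adhesion genes the counts were 8 (11.6%) and 2 of 69. Shares of Nup153 sites nearer to that of all starts were found for synaptic receptor and channel genes (3 and 0 of 57, 5.26% for Nup153), BMP and TGF-beta ligands (2 and 0 of 28, 7.14%), WNT ligands (1 and 0 of 19, 5.26%), mesoderm genes (1 and 0 of 21, 4.76%) and cadherins (1 and 0 of 23, 4.35%). TBX and GATA factors had 2 and 1 of 21, trophoblast genes 2 and 0 of 16, endoderm genes 4 and 3 of 21, SOX factors 0 and 1 of 19, and PAX factors 0 and 0 of 9.

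Hoxa4 had 1.33 and 1.57 FPKM in NeuP and 1.01 FPKM in control ESC, which did not pass the test (adjusted p = 0.268). Of the Nodal pathway genes 5 of 17 (29.4%) had a Nup153 site at the start (among them Foxh1, and with both Nodal and Tdgf1) and 3 (17.6%) an Oct4 site, the third being Lefty2. Nodal, the TGF-beta family ligand that patterns the early embryo, was listed at 0 in both NeuP libraries, at 20.0 and 19.6 FPKM in the hairpins and at 9.07 FPKM in control ESC. Of 12 formative and primed epiblast genes 4 (33.3%) had a Nup153 site (Fgf5, Tcf15, and with both Dnmt3a and Nodal) and 2 (16.7%) an Oct4 site.

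Of 33 neural progenitor genes 5 (15.2%) had a Nup153 site at the start and 3 (9.09%) an Oct4 site, Meis2 and Nes having Nup153 only and Hes1, Slc1a3 and Vim both. The list as a whole had 20 of 31 tested genes higher in NeuP and 0 lower, beside 18.3% higher and 24.9% lower of all tested. Without hairpin #2 and without hairpin #4 the counts of higher genes were 10 and 9, beside 2.32% and 2.31% of all. Slc1a3, a glutamate transporter of glia and radial glia, had 273 and 321 FPKM in NeuP, 2.75 and 4.12 FPKM in the hairpins and 2.41 FPKM in control ESC (log2 change in NeuP 6.45 ± 0.29, adjusted p = 0.00238). Vim, an intermediate filament gene, had 913 and 506 FPKM in NeuP and 100 FPKM in control ESC (adjusted p = 0.0157, and 0.138 without hairpin #2 or without hairpin #4). Hes1, a Notch target, had 23.2 and 13.9 FPKM in NeuP and 19.2 FPKM in control ESC, so its NeuP values lay on either side of the control.

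The remaining lists, beside the 5.91% and 2.80% of all starts, had counts as follows. Ribosomal protein genes had Nup153 sites at 4 and Oct4 sites at 4 of 80 starts, proteasome genes at 3 and 3 of 31 (9.68% each), collagens at 2 and 2 of 44, nucleoporins at 1 (Sec13) and 1 (Nup107) of 30, respiratory chain genes at 2 and 1 of 35, histones at 7 and 5 of 67 (10.4% and 7.46%), and proliferation genes at 4 (11.8%) and 0 of 34. The numbered Zfp zinc finger genes had them at 33 and 22 of 333 starts (9.91% and 6.61%), 16 of them with both. Keratins had 0 and 1 of 48, olfactory receptors 3 and 1 of 1102 and vomeronasal receptors 0 and 0 of 329. Protocadherins had Nup153 sites at 10 and Oct4 sites at 6 of 70 starts (14.3% and 8.57%).

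The genes with the highest RNA level were named for each class of starts. At Nup153-only starts they were Rpl8, Hsp90ab1, Eef2, Txnip and Apoe, with 2441 FPKM of the ribosomal protein gene Rpl8 in control ESC. Txnip stands near a Nup153 site that overlaps an Oct4 site lying more than 2 kb from its start. At starts with both they were Eef1a1, Calr, Mt2, Slc2a3 and Mt1, and at Oct4-only starts they included Hsp90aa1, Ccng1, Cnn3 and Cstb, of which Cnn3 stands near an Oct4 site that overlaps a Nup153 site. The cytosolic HSP90 chaperone genes fell in different classes. Hsp90ab1, with a Nup153 site only, had 600 and 871 FPKM in NeuP, 2181 and 2325 FPKM in the hairpins and 2310 FPKM in control ESC. Hsp90aa1, with an Oct4 site only, had 13.1 and 28.6 FPKM in NeuP, 411 and 431 FPKM in the hairpins and 529 FPKM in control ESC. Both were lower in NeuP (adjusted p = 0.0237 and 0.00778) and lost the call without either hairpin library (0.203 and 0.0935 without hairpin #2). Apoe, the lipid carrier, differed between the NeuP replicates, with 1492 and 89.5 FPKM against 741 FPKM in control ESC (adjusted p = 0.674), and so did the metallothionein gene Mt2, with 426 and 5.46 FPKM against 670 FPKM (adjusted p = 0.327). Without NeuP replicate 1 their adjusted p was 0.00646 and 0.000623, and without NeuP replicate 2 it was 0.102 and 0.0907, with a log2 change of Apoe of -3.03 in the first case and 1.01 in the second.

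In NeuP the genes at sites of every class were lower more often than the genes tested in general. Of the tested transcripts 316 of 893 Nup153-only (35.4%, interval 32.3 to 38.6), 132 of 332 both (39.8%, 34.6 to 45.1) and 73 of 210 Oct4-only starts (34.8%, 28.6 to 41.4) were lower, beside 24.9% of all and 23.5% of starts with neither. Higher levels were called for 132 (14.8%), 40 (12.0%) and 35 (16.7%), beside 18.3% of all. The median log2 change was -0.60 for Nup153-only, -0.87 for both and -0.63 for Oct4-only starts, beside -0.26 over all transcripts tested. The 3 intervals for the lower share overlap, so the classes cannot be ordered. The neural progenitor marker sum and some of the feeder markers given above were also higher in NeuP, and their part in these counts was not tested. Within transcripts averaging 10 to 100 FPKM over all 5 libraries the lower share was 32.6%, 37.4% and 35.9%. At starts with neither it was 19.6%. Under 10 FPKM the shares were 37.4%, 39.7% and 32.0%, against 26.4%. The average includes the ESC libraries being compared, so these bins do not match transcripts on control level. Transcripts that reached 1 FPKM in ESC libraries alone could be called lower far more readily than higher. Their part in these counts was not tested.

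The number of calls rested on the libraries in the fit. Without hairpin #2, and likewise without hairpin #4, 127 Nup153-only, 67 both and 32 Oct4-only starts were lower (14.2%, 20.2% and 15.2%), with 11.0% and 10.9% of all transcripts, and 18, 3 and 7 were higher. For these higher calls the shares of all transcripts are those given above with the neural progenitor genes, and no excess is read from them. With a NeuP replicate left out, NeuP and control hold 1 library each and the spread comes from the hairpin libraries alone. Without NeuP replicate 1 they were 486, 197 and 107 lower, with 43.1% of all, and 212, 87 and 55 higher, with 34.1%. Without NeuP replicate 2 they were 515, 198 and 123 lower, with 48.2% of all, and 220, 87 and 58 higher, with 33.6%. Of the 77 genes that the rule named and that were called in NeuP, which the rule in part selects for, 35 were also called without hairpin #2, and 35 without hairpin #4.

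**Figure D5:**
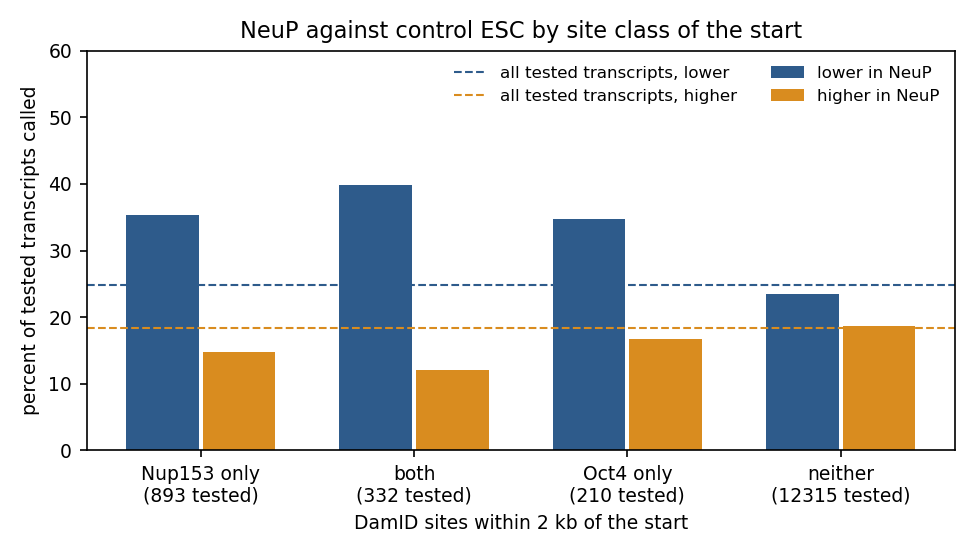
Percent of tested transcripts called lower or higher in NeuP than in control ESC (vertical axis) by the DamID sites within 2 kb of the start (horizontal axis, with the number tested), with dashed lines for all tested transcripts. The lower share is 35.4% at Nup153-only, 39.8% at both and 34.8% at Oct4-only starts, against 23.5% at starts with neither.

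The largest NeuP changes at each kind of start named the genes at its ends. At Nup153-only starts the largest falls were in Fabp3, Pou5f1, Chchd10, Mdk and Icam1, and the largest rises in Ednrb, Tril, Mmd2, Wls and Spry2. Fabp3, a fatty acid binding protein gene, had 0.0980 and 0.0650 FPKM in NeuP, 338 and 313 FPKM in the hairpins and 454 FPKM in control ESC (log2 change -8.72 ± 0.19, adjusted p = 0.00238). Ednrb, the endothelin receptor type B gene, had 192 and 89.8 FPKM in NeuP, 0.0160 and 0.177 FPKM in the hairpins and 0.0100 FPKM in control ESC (log2 change 7.03 ± 0.52, adjusted p = 0.00389, and 0.0589 without hairpin #2 or #4). Of these 10 genes Ednrb, Tril, Mmd2, Spry2 and Mdk lost the call without either hairpin library.

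At starts with both kinds of site the largest falls were in Dppa5a, Fbxo15, Slc38a4, Rps4l and Slc2a3. Slc38a4, an amino acid transporter gene, had 0.0480 and 0.326 FPKM in NeuP and 120 FPKM in control ESC, and the glucose transporter gene Slc2a3 had 5.11 and 9.83 FPKM in NeuP and 662 FPKM in control ESC. The Slc2a3 call was lost without either hairpin library (adjusted p = 0.0512). The rises were led by Slc1a3, followed by 4 gamma protocadherin genes, Pcdhgb7, Pcdhgb6, Pcdhga4 and Pcdhga11. These share their last exons and their values were nearly the same (for Pcdhgb7 183 and 101 FPKM in NeuP and 7.57 FPKM in control ESC), so they count as 1 uncertain measurement. All 4 lost the call without either hairpin library (for Pcdhgb7 adjusted p = 0.089).

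At Oct4-only starts the largest falls were in Spp1, Trim6, 4930500J02Rik, Fam25c and Pramef12, and the largest rises in BC064078, Alcam, Etv1, Reep3 and Rtn1. Spp1, which encodes the secreted protein osteopontin, had 1.04 and 2.37 FPKM in NeuP, 165 and 186 FPKM in the hairpins and 192 FPKM in control ESC (log2 change -6.21 ± 0.38, adjusted p = 0.00295). Alcam had 25.6 and 28.1 FPKM in NeuP, 0.247 and 0.341 FPKM in the hairpins and 0.0720 FPKM in control ESC (log2 change 4.70 ± 0.17, adjusted p = 0.00238). Etv1 and Reep3 stood at Oct4 sites that overlap a Nup153 site lying more than 2 kb from the start.

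Some long genes held many sites of 1 or both lists. Etl4 held 4 Nup153 and 10 Oct4 sites and Rbpms, an RNA-binding protein gene, 5 and 8. Cdh13, which encodes T-cadherin, held 0 and 7, whereas Rnf220, a ubiquitin ligase gene, held 7 and 2. Msi2, an RNA-binding protein of stem and progenitor cells, held 6 and 7. The transcripts with the most Nup153 sites were the long Pcdha4-g, Pcdha6-g and Pcdha7-g, which span the protocadherin clusters and each held the same 8 Nup153 and 7 Oct4 sites. Etl4 and Rbpms were lower in NeuP, Rbpms with 1.03 and 0.910 FPKM in NeuP and 42.0 FPKM in control ESC (log2 change -4.45 ± 0.18, adjusted p = 0.00238). Cdh13 was higher, with 65.8 and 21.7 FPKM in NeuP and 0.0870 FPKM in control ESC (adjusted p = 0.0121, and 0.118 without hairpin #2).

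The last comparison asked whether genes at the sites changed when Nup153 was knocked down. The Nup153 transcript (NM_175749, chromosome 13, 46775271 to 46823218, minus strand, mm9) had 20.9 and 17.4 FPKM in hairpins #2 and #4 and 39.4 FPKM in control ESC. The log2 change of -1.01 ± 0.55 did not pass the test (limma adjusted p = 0.897). The fit uses 1 spread per transcript for all groups, so this SE also holds the difference of the NeuP replicates, 12.8 and 29.1 FPKM. The same is true of every knockdown SE and adjusted p given here. Limma called 0 of 13750 transcripts in either direction (before adjustment 814 fell under 0.05, and adjusted values began at 0.825), so 0% was the background and no member passed. By size alone, 2-fold or more in both hairpins on the log2(FPKM + 1) scale, 4 of 893 Nup153-only (0.448%), 4 of 332 both (1.20%) and 2 of 210 Oct4-only starts (0.952%) were higher, beside 0.305% of all, and 0, 1 and 1 were lower, beside 0.160%. These counts moved to 45 higher and 6 lower in all with a pseudocount of 0.1 in place of 1. The share over all transcripts at that pseudocount was not computed, so no excess at the sites can be read from them.

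The higher ones were Krcc1, Pkd2, Ppp1r10 and Zfhx2 at Nup153-only starts, Aspa, L1td1, Nodal and Pros1 at starts with both, and C330021F23Rik and Cd80 at Oct4-only starts. L1td1, which encodes an RNA-binding protein of ESC derived from a LINE-1 element, had 33.9 and 43.6 FPKM in the hairpins and 14.9 FPKM in control ESC. Ppp1r10, a nuclear regulatory subunit gene of protein phosphatase 1, had 11.8 and 12.5 FPKM in the hairpins and 3.74 FPKM in control ESC. The lower ones were 1190002F15Rik at a start with both and Krtdap at an Oct4-only start, with 9.74 and 7.01 FPKM in the hairpins and 20.6 FPKM in control ESC. Their adjusted p was 0.825, or 1 for 1190002F15Rik, so these are differences in size with no test passed.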

How the data were processed

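DamID-seq, ChIP-seq and RNA-seq of mouse cells were used. Per the submitters' processing notes the authors used CASAVA 1.8.2, aligned reads to mm9 with Bowtie2 2.1.0 or STAR 2.2.0c (RNA) and ran HOMER 4.6 and edgeR. The DamID and ChIP sites were deposited as start and end positions, with a score of 1 throughout. Each ChIP list was called, per the file headers, by HOMER findPeaks against an ESC IgG library, 1 library each. How the DamID replicates and the GFP control were combined was not given in the sources used here. RNA values were deposited as FPKM by the authors, 1 transcript per gene symbol, and samples were taken from the column names.

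Here sites were intersected at 1 bp in Python 3.11.15 (with pandas 2.3.3, numpy 2.4.6 and scipy 1.17.1), with Wilson intervals for shares and Newcombe intervals for differences, which cover counting error only. Starts came from the deposited transcript spans. FPKM were tested two-sided with limma 3.58.1 (R 4.3.3), limma-trend on log2(FPKM + 1), with all 5 libraries in 3 groups and Benjamini-Hochberg adjustment over 13750 transcripts, and called at 0.05. The procedure was checked on simulated data with equal noise in every library, which the real libraries need not have. That check covers how the fit runs and not the calls made here. Fold changes on this scale understate low genes, and p-values measure only the spread between these samples, which may be technical. RNA depth was read from the step of low FPKM values. Figures were drawn with matplotlib 3.10.9.

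Genes were named by a rule: for each class of starts the 5 highest in control ESC and the 5 largest rises and falls among those called in NeuP, the 5 with the most sites of each list, the pluripotency, PRC1 and PRC2 genes with a site at the start, and members of other lists with both. Other named list members, microRNAs and genes selected by 2-fold size were chosen after their values were seen. Some genes that the rule names are not reported here. The classes and gene lists were chosen with earlier results of these data known. Alternatives were other overlaps, windows, widths, peak lists, filters, pseudocounts and left-out libraries.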

Additional observations from a re-analysis of the deposited data

How the results depend on the processing

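The start share differences between the site classes kept their direction and an interval on the same side of 0 under every alternative tried. So did the Oct4 ChIP differences with the hairpin #2 list and within 1000 bp of a peak, and the Ring1B differences of shared sites, which shrank to 3.95 and 3.08 points at 50% of the site. For usual-width sites of the Oct4 list, the Oct4 ChIP shares of shared and Oct4-only sites had overlapping intervals (6.71 to 10.6 and 6.05 to 8.64). Where a value moved or reversed, the cause was not tested. The share of Nup153 sites shared with Oct4 was 31.5% with centres within 500 bp and 25.8% for usual-width sites, and that of Oct4 sites 31.0% and 25.9%. The Ring1B difference of Nup153-only and Oct4-only sites was 1.01 points in the hairpin #2 list and -2.09 with any ESC list. For Cbx7, overlap of 50% of the site gave 3.41 points for Nup153-only minus Oct4-only, -2.97 for shared minus Nup153-only and 0.441 for shared minus Oct4-only. Usual-width sites intersected anew, added after seeing the data, gave -1.34, 1.83 and 0.490, and leaving out chromosome 8 gave -2.04 for the first. The share of starts at 1 FPKM differed by 4.50 points between Nup153-only and Oct4-only starts among protein-coding transcripts. For both minus Nup153-only it was 3.47 at 0.1 FPKM, 5.20 at 5 FPKM, 3.92 with starts within 1000 bp and 4.19 within 5000 bp, each with an interval that included 0.

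NeuP calls in the control and NeuP libraries alone were 129, 70 and 34 lower and 9, 3 and 6 higher for Nup153-only, both and Oct4-only starts. Leaving out 1 library gave 127 to 515, 67 to 198 and 32 to 123 lower, and 18 to 220, 3 to 87 and 7 to 58 higher. Starts within 5000 bp gave 62 higher for both, and no filter on low values 20 higher for Oct4-only starts. In the knockdown, no filter gave 1 higher and 2 lower Nup153-only, 1 lower both and 2 lower Oct4-only starts. The counts of this paragraph, apart from NeuP calls with 1 library left out, stand without the share over all transcripts in the same setting. They show how far the calls moved and not whether a class lies above the background. The 10 higher and 2 lower by 2-fold became 45 and 6 at a pseudocount of 0.1, 0 and 0 at 5, and 15 to 19 and 3 to 9 with 1 hairpin left out.

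No paired analysis was possible because each DamID list merges its replicates and the RNA control is 1 library. DamID depth per site is not known, and the Ring1B lists differ in depth.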
